A study of Mus musculus with 4 samples.

Results

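The genes described here are 6 markers of fast transmitter identity, followed through nuclei of the aged mouse hypothalamus: Gad1 (ENSMUSG00000070880), Gad2 (ENSMUSG00000026787) and Slc32a1 (ENSMUSG00000037771) on the GABA side, and Slc17a6 (ENSMUSG00000030500), Slc17a7 (ENSMUSG00000070570) and Slc17a8 (ENSMUSG00000019935) on the glutamate side. They are 6 of 32285 genes in the files, and all 6 symbols were found. They were read in nuclei with 1000 or more unique molecular identifiers (UMIs, each standing for 1 captured RNA molecule) and 3 or more UMIs of Snhg11, a long non-coding RNA abundant in neurons. These qualifying nuclei numbered 4243 of 6158. Each was placed in 1 of 4 classes: GABA-only, with at least 1 UMI of Gad1, Gad2 or Slc32a1 and none of the 3 Slc17a genes; glutamate-only, the reverse; joint, with at least 1 UMI of each side; and neither. The study compared the whole hypothalamus of mice aged about 18 months that had received neural stem cells of hypothalamic identity derived from human brain organoids with that of control mice of the same age, by single-nucleus RNA sequencing. Strain, sex and genotype are not stated in the labels, and the title of the first control library joins a pair of codes without saying whether animals were pooled.

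Of the 4 deposited matrices, 2 carry the control label and 2 the transplanted label, but each transplanted-labelled matrix shared nearly all its cell barcodes with a control-labelled one: 3997 of 4008 barcodes for control replicate 1 and 2144 of 2150 for control replicate 2. Other pairs of matrices shared 4 barcodes. The 2 control-labelled matrices are therefore described as the 2 distinct libraries, library A (control replicate 1) and library B (control replicate 2), and no comparison between control and transplanted animals is made. Since these nuclei carry both labels, whether they come from control or transplanted animals cannot be told. All values below come from these 2 libraries, so an SD over them measures the spread between 2 libraries that share 1 label. The tests below take the library as a block, which removes the shift that all classes of a library share. They are judged against how class differences vary between the 2 libraries, with the spread pooled over genes. They are not judged against the full spread between libraries.

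GABA, the main inhibitory transmitter, is made from glutamate by glutamate decarboxylase, whose isoforms GAD67 and GAD65 are encoded by Gad1 and Gad2, and it is loaded into synaptic vesicles by the transporter VGAT, encoded by Slc32a1. Slc17a6, Slc17a7 and Slc17a8 encode the vesicular glutamate transporters VGLUT2, VGLUT1 and VGLUT3, which load glutamate into vesicles. VGLUT2 is the main form in the hypothalamus and VGLUT1 that of the cerebral cortex. Most hypothalamic neurons are known to use either GABA or glutamate along with a neuropeptide, and some groups are known to carry genes of both systems.

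The promoters of the 4 members found in many nuclei are shown because these genes split the nuclei between the classes. Each line gives the 250 bases before the first RefSeq start of the gene on GRCm38.p6, 5′ to 3′ along the gene. All 4 lie on the plus strand: Gad1 at chr2:70561879-70562128, Gad2 at chr2:22622077-22622326, Slc32a1 at chr2:158610508-158610757 and Slc17a6 at chr7:51621580-51621829. Capitals mark a match on either strand to TGACAG, a core recognised by the Meis and Pbx class of factors.
Gad1: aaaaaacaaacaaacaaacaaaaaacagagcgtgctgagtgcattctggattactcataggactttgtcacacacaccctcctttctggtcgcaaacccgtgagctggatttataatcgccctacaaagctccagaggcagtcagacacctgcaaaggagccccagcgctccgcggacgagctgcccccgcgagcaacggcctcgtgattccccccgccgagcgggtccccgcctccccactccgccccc
Gad2: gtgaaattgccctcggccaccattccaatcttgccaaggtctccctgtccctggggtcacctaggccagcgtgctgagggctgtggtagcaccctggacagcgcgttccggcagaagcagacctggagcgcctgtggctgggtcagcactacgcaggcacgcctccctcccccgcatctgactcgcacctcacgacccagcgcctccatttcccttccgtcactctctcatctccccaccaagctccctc
Slc32a1: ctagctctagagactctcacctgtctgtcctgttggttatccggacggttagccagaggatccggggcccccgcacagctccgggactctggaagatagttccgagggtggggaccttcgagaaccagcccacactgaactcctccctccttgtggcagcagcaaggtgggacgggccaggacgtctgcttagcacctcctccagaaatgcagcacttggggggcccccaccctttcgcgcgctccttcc
Slc17a6: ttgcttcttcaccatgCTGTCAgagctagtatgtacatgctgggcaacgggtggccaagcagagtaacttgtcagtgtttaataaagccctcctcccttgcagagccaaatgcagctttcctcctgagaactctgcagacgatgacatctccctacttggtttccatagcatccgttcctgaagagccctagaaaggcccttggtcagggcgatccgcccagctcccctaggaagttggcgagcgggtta
3 short motifs were searched on both strands: TAATTA, a homeobox core of the kind bound by Dlx factors, TGACAG, and the palindrome of the Ebf factors. None of the 3 occurred in these windows of Gad1, Gad2 or Slc32a1, and the Slc17a6 window held 1 TGACAG match. TAATTA occurred in 4.84%, TGACAG in 15.9% and the Ebf palindrome in 0.779% of 32851 RefSeq promoter windows of the same length. A match describes the letters and not a bound site. The windows differed in GC content, at 58% for Gad1, 64% for Gad2, 62.4% for Slc32a1 and 53.2% for Slc17a6.

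Library A held 4008 nuclei and 8779880 UMIs, of which 2820 nuclei (70.4%) qualified, and library B held 2150 nuclei and 4924563 UMIs, of which 1423 (66.2%) qualified. The median qualifying nucleus had 2369.5 UMIs in A and 2685 in B. Of the qualifying nuclei, 97.4% in A and 99.2% in B lay in clusters named neuron-like from neuron markers. Snhg11, which set the filter, is among the 12 neuron markers, so this naming is not independent of the filter. All 12 neuron markers were detected in every class of both libraries, which for Snhg11 follows from the filter.

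Gad2 was found in 30.8% of qualifying nuclei of A (exact 95% interval 29.1 to 32.6) and in 31.0% of B (28.6 to 33.5). Slc17a6 was found in 30.1% of A (28.4 to 31.8) and 26.7% of B (24.4 to 29.1). Slc32a1 was found in 14.9% and 15.7%. Gad1 was the member that differed most between the libraries in this share, at 10.8% (9.66 to 11.98) in A and 16.6% (14.7 to 18.6) in B, and these intervals do not overlap. All intervals cover counting error only.

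As levels, Gad2 stood at 229 CPM (UMIs of the gene scaled to a common library total) in A and 192 in B, or 210 ± 25.7 (SD, n = 2). Slc17a6 stood at 188 and 133 CPM (161 ± 38.8, SD, n = 2), Slc32a1 at 72.3 and 66.9 CPM (69.6 ± 3.80, SD, n = 2) and Gad1 at 47.3 and 70.9 CPM (59.1 ± 16.6, SD, n = 2). The values are not scaled by gene length, so the genes are not ranked against each other by level. Slc17a7 gave 1 UMI in A and none in B, where 0 of 1423 nuclei allows a share of up to 0.211% with a UMI. Slc17a8 gave 11 UMIs in 10 nuclei of A and 3 UMIs in 3 nuclei of B. The glutamate side in these nuclei was therefore almost wholly Slc17a6, and any statement on it is a statement on that gene.

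Gad1, Slc32a1 and Slc17a6 were mostly read as a single UMI where found, and Gad2 less often so. In library A, 254 of 304 Gad1 nuclei held a single Gad1 UMI, as did 312 of 420 for Slc32a1, 475 of 849 for Slc17a6 and 410 of 869 for Gad2. Gad2 had the deepest counts, with 221 nuclei at 3 or more UMIs in A and 98 in B, and its highest nucleus held 14 UMIs. With every nucleus thinned to 1000 UMIs, Gad2 remained detectable in 18.2% of A and 15.6% of B, Slc17a6 in 15.2% and 11.5%, Slc32a1 in 7.58% and 6.75% and Gad1 in 4.71% and 6.85%.

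**Figure D1:**
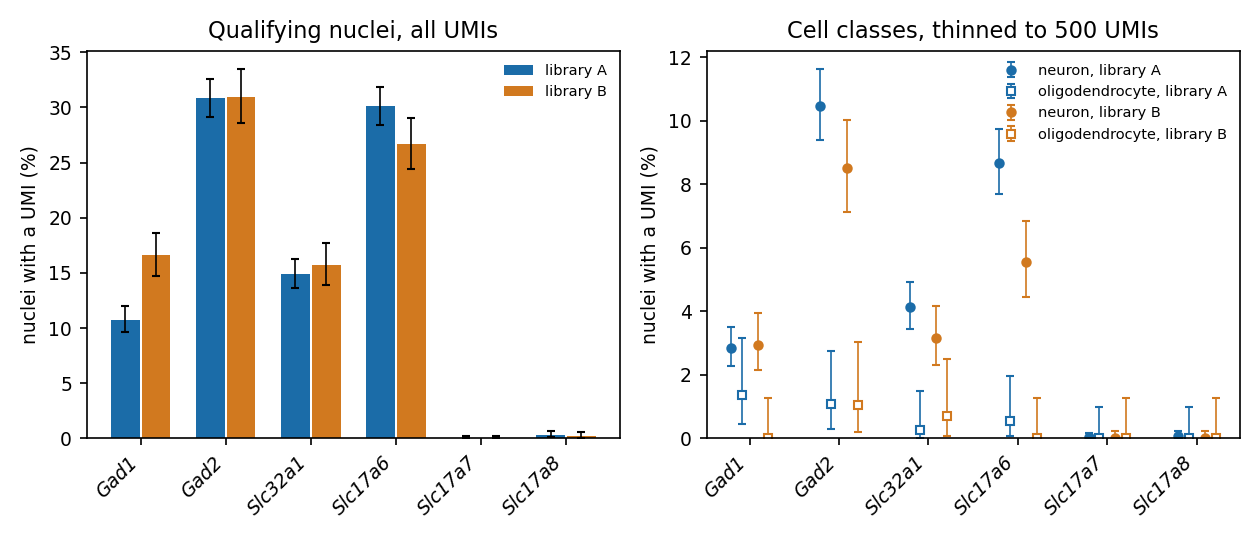
Share of nuclei with at least 1 UMI of each gene (%), with exact 95% intervals. Left, qualifying nuclei of libraries A and B with all UMIs, where Gad2 and Slc17a6 stand highest and Slc17a7 and Slc17a8 lie near 0. Right, neuron-like and oligodendrocyte-like nuclei thinned to 500 UMIs, where neuron-like nuclei lie above oligodendrocyte-like ones for Gad2, Slc32a1 and Slc17a6.

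Free RNA can give a UMI to a nucleus that does not express a gene, so the same genes were read in oligodendrocyte-like nuclei, which should lack them. Any GABA-side UMI was found there in 3.54% of 367 nuclei in A and 2.80% of 286 in B, at median depths of 667 and 686.5 UMIs. Any glutamate-side UMI was found in 1.09% and in 0 of 286, which allows a share of up to 1.05%. None of these nuclei carried both sides, but only 4 in A and 0 in B had a glutamate-side UMI at all. Finding none allows a joint share of up to 0.817% in A and 1.05% in B. Neuron-like nuclei thinned to 500 UMIs were joint in 0.333% of A and 0.201% of B, below these limits. The 2 cell types are thus not told apart in joint detection, and the part of free RNA in it was not tested. Thinned to 500 UMIs, any GABA-side UMI was found in 15.8% of neuron-like nuclei of A and 13.7% of B against 2.72% and 1.75% of oligodendrocyte-like nuclei, so the neuronal share stood above that of oligodendrocyte-like nuclei in each library. Any glutamate-side UMI, thinned in the same way, was found in 8.74% and 5.56% of neuron-like nuclei against 0.545% and 0 of 286 oligodendrocyte-like nuclei. Other glia had higher shares in A: with all UMIs a GABA-side gene was read in 5.83% of 326 astrocyte-like nuclei, and a glutamate-side gene in 6 of 66 microglia-like nuclei (9.09%). Thinned, the microglia-like share was 4.55% (exact 95% interval 0.947 to 12.7), which overlaps that of neuron-like nuclei, and in B it was 0 of 47, which allows a share of up to 6.38%.

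The classes were split in much the same way in both libraries. GABA-only nuclei made up 1037 of 2820 in A (36.8%, exact 95% interval 35.0 to 38.6) and 564 of 1423 in B (39.6%, 37.1 to 42.2). Glutamate-only nuclei made up 762 in A (27.0%, 25.4 to 28.7) and 334 in B (23.5%, 21.3 to 25.8). Joint nuclei numbered 91 in A (3.23%, 2.61 to 3.95) and 49 in B (3.44%, 2.56 to 4.53). No member was found in 930 nuclei of A (33.0%, 31.2 to 34.7) and 476 of B (33.5%, 31.0 to 35.97). Over both libraries the shares were 38.2 ± 2.02%, 25.2 ± 2.51%, 3.34 ± 0.153% and 33.2 ± 0.334% (SD, n = 2) in that order.

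Depth moved with these shares. Nuclei with neither side had the lowest median depth, 1999.5 UMIs in A and 2312 in B, and joint nuclei the highest, 3083 and 3612. From nuclei under 2000 UMIs to those of 4000 or more, the share with neither side went from 44.5% to 16.3% in A and from 52.6% to 17.5% in B. The glutamate-only share went from 18.2% to 39.8% in A and from 12.1% to 34.6% in B, while the GABA-only share changed little, from 35.9% to 37.9% in A and from 34.4% to 40.4% in B. Thinned to 1000 UMIs, 24.6 ± 0.388% of nuclei were GABA-only, 12.8 ± 2.54% glutamate-only, 0.624 ± 0.100% joint and 62.04 ± 3.03% neither (SD, n = 2). The share with neither side is thus a share at this depth, not a count of neurons without a transmitter.

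**Figure D2:**
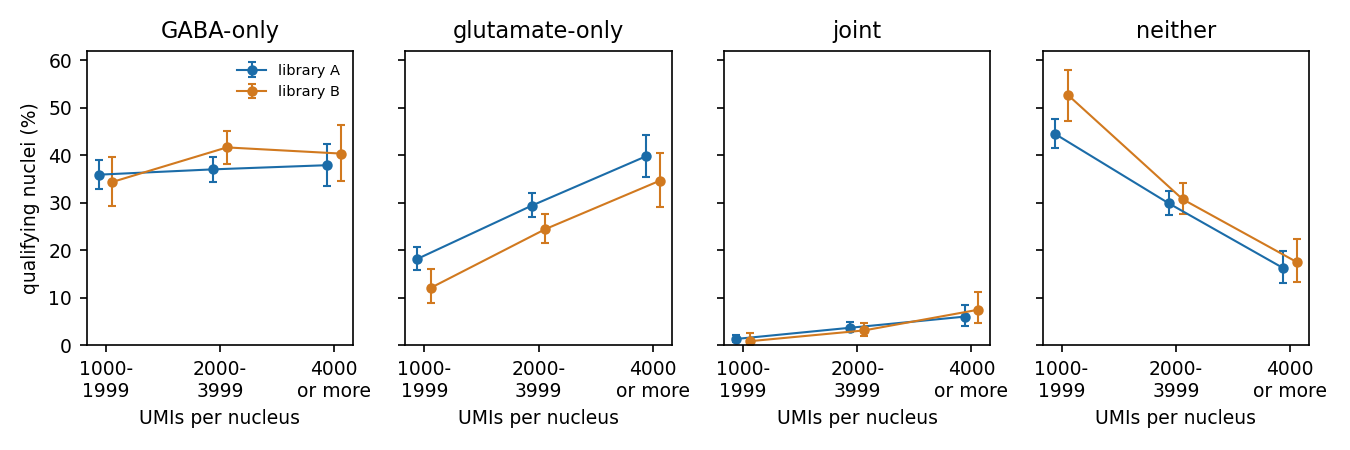
Share of qualifying nuclei in each class (%) by total UMIs per nucleus, in libraries A and B, with exact 95% intervals. The share with neither side falls with depth, from 44.5% to 16.3% in A, while joint nuclei go from 1.34% to 6.04% there and from 0.867% to 7.50% in B.

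Within the GABA side the genes were found together. Gad1 and Gad2 met in 179 nuclei of A against 93.7 given by the product of their shares, a ratio of 1.91, and in 135 of B, a ratio of 1.85. Gad1 with Slc32a1 gave 2.03 and 1.83, and Gad2 with Slc32a1 gave 1.97 and 1.92. Thinning to 1000 UMIs left these ratios between 1.71 and 2.13. Even so, all 3 genes were read together in only 59 GABA-only nuclei of A and 46 of B, while Gad2 alone accounted for 440 of 1037 and 198 of 564. Gad1 alone was read in 78 and 67 nuclei and Slc32a1 alone in 124 and 67.

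Across the sides the genes were found apart. Any GABA-side gene with any glutamate-side gene met at 0.267 of the product of the shares in A and 0.297 in B (mean 0.282), and at 0.178 and 0.193 after thinning. Gad1 with Slc17a6 gave 0.219 and 0.301, and Gad2 with Slc17a6 gave 0.245 and 0.221. Of the 3 GABA-side genes, the vesicular Slc32a1 met Slc17a6 least often in both libraries, in 17 nuclei of A (0.134) and 10 of B (0.167), and after thinning at 0.0745 and 0.0598. Deeper nuclei came closer to the product: the ratio over both sides was 0.184 in nuclei under 2000 UMIs and 0.300 in those of 4000 or more in A, and 0.189 and 0.372 in B, where the shallow value rests on 3 joint nuclei. These ratios are descriptions of nuclei within a library and carry no test.

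**Figure D3:**
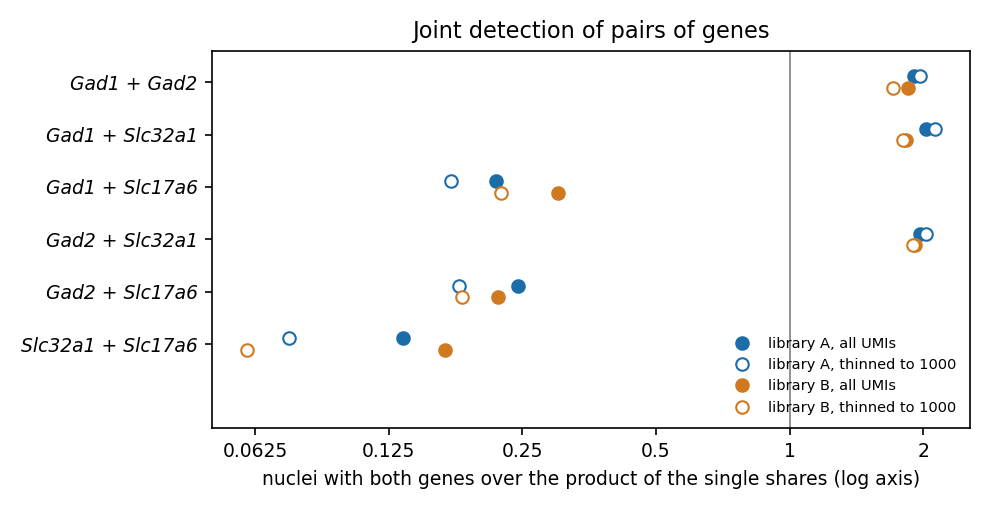
Nuclei in which both genes of a pair were found over the number given by the product of their shares (log axis), for libraries A and B, with all UMIs (filled) and thinned to 1000 UMIs (open). The 3 GABA-side pairs lie between 1.71 and 2.13 and the 3 pairs with Slc17a6 below 0.31, with Slc32a1 and Slc17a6 lowest.

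Joint nuclei mostly rested on single UMIs. A single UMI of each side was all that 40 of 91 joint nuclei in A and 22 of 49 in B held, and 2 or more of each were found in 8 and 3. In A the GABA side was down to 1 UMI in 72 of 91 joint nuclei and the glutamate side in 51. In B each side was down to 1 UMI in 34 of 49. The commonest combination was Gad2 with Slc17a6, in 76 of 140 joint nuclei, followed by Gad1 with Slc17a6 in 28 and Slc32a1 with Slc17a6 in 14. Slc17a8 took part in 6 joint nuclei.

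The other side was found unevenly by how firmly a nucleus carried its own. Among nuclei with a single GABA-side UMI, 16.3% in A (exact 95% interval 12.97 to 20.1) and 13.6% in B (9.61 to 18.5) also carried the glutamate side. Among those with 3 or more GABA-side UMIs the share was 3.08% (1.60 to 5.31) and 4.39% (2.03 to 8.17), although these nuclei were deeper, at medians of 2947.5 and 3294 UMIs. Counted from the glutamate side no such gap appeared in A, with 10.7% at 1 UMI and 10.8% at 3 or more. In B the values were 13.7% and 8.33%, with intervals that overlap.

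Nearly all barcodes of each library also occur in a matrix under the transplanted label. The median profile correlation over 400 of these barcodes was 0.896 in A and 0.880 in B. The labels do not say how the 2 sets of counts came to differ. Set side by side, they show how often a class moved. The same nucleus fell in the same class in 88.6% of A and 88.2% of B. Joint nuclei were again joint in 65 of 91 and 43 of 49, and those with 1 UMI of each side in 23 of 40 and 17 of 22. A change from GABA-only to glutamate-only was seen in 1 nucleus of A and the reverse in 2, with none in B. These are not replicates, since both files describe one set of nuclei.

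Nuclei were clustered on the other genes, with the 6 members left out, and the clusters are numbered and called by leading genes. The clusters ranged from nearly all GABA-side to mostly glutamate-side. Cluster 9, with Meis2, which encodes a TALE homeobox factor, as its leading gene, was the most uniformly GABAergic: any GABA-side gene was read in 93.2 ± 3.02% (SD, n = 2 libraries, 142 nuclei) and Slc17a6 in 1 nucleus. Cluster 15, with Onecut2 and Ddc among its leading genes, reached 76.7 ± 4.19% (504 nuclei), and cluster 18, led by the neurotensin gene Nts, 74.96 ± 8.68% (297 nuclei). Cluster 8, with Vipr2, the receptor for vasoactive intestinal peptide that is known from the suprachiasmatic nucleus, reached 68.3 ± 3.12% (137 nuclei), and cluster 14, led by Sst (somatostatin), 60.7 ± 7.63% (200 nuclei).

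The GABA-side genes were not used in one proportion across these clusters. Cluster 8 held Gad1 in 35.9% of nuclei in A and 35.6% in B beside Gad2 in 42.3% and 35.6%, at 248 and 219 CPM for Gad1. Cluster 9 held Gad1 in 24.4% and 32.1% beside Gad2 in 83.7% and 73.2%. The small cluster 25, led by the histidine decarboxylase gene Hdc and by Slc18a2, the vesicular monoamine transporter, held Gad1 in 9 of 19 nuclei of A and in all 3 of B, and no Slc32a1 UMI in any of the 22. Cluster 28, led by Pmch, the precursor of melanin-concentrating hormone, likewise held Gad1 and Slc17a6 but no Slc32a1 UMI in 23 nuclei.

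On the glutamate side, cluster 10, led by Gm49171 and Adamts18, carried a glutamate-side gene in 64.6% of 79 nuclei in A and 80% of only 5 in B. The small cluster 26, with Tcf7l2, carried one in 65.7 ± 3.86% of nuclei (SD, n = 2 libraries, 46 nuclei) and cluster 7, with Rgs6 and Arpp21, in 61.1 ± 10.6% (132 nuclei). Cluster 3, led by Hmcn2 and Gpr149, carried one in 59.2 ± 0.694% (340 nuclei). Cluster 22, led by Lmx1a, a LIM homeobox factor, carried one in 58.7 ± 5.84% (252 nuclei), cluster 4, with Col19a1, in 56.5 ± 5.49% (158 nuclei) and cluster 1, with Trh, Ebf1 and Sim1, in 50.9 ± 3.82% (277 nuclei). Cluster 12, led by Avp and Oxt, the genes of vasopressin and oxytocin, carried Slc17a6 in 54.7 ± 9.08% and none of the GABA-side genes in 47 nuclei. Cluster 20, led by Hcrt, the orexin gene, had Slc17a6 in 29.7% of 37 nuclei in A and 28.6% of 7 in B, and 61.0 ± 5.46% of its nuclei had neither side.

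A few clusters held both classes. Cluster 5, with Npsr1 and Tac1, carried the GABA side in 60.7 ± 9.62% and the glutamate side in 20.8 ± 1.82% (281 nuclei), and cluster 13, with the relaxin receptor gene Rxfp1 and the oestrogen receptor gene Esr1, in 30.7 ± 11.9% and 33.8 ± 5.87% (114 nuclei). Joint nuclei were spread over many clusters: cluster 3 held 20 of 140, cluster 1 held 19, cluster 22 held 17, cluster 6 held 16 and cluster 5 held 14. In that order these were 5.74%, 6.86%, 6.76%, 3.95% and 5.45% of the cluster (means of 2 libraries), beside 3.34% of all qualifying nuclei. The largest, cluster 15, held 5 (0.894%). Cluster 16, with the oligodendrocyte gene Mbp among its leading genes, held 9, of which 7 were in library B. The joint share there was 2.67% in A and 15.6% in B. Only 65.3% of its nuclei in A and 88.9% in B lay in neuron-like clusters of the full data. The part of mixed nuclei in joint detection was not tested.

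**Figure D4:**
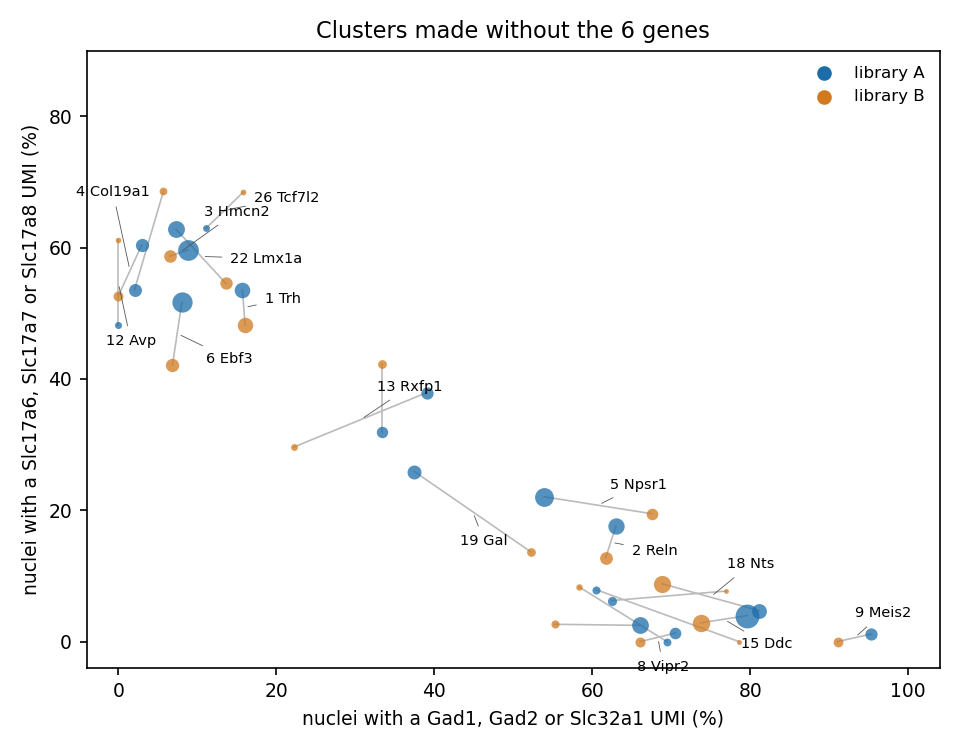
Clusters of qualifying nuclei made without the 6 genes, by the share of nuclei with a GABA-side gene and with a glutamate-side gene (%). Points are libraries A and B joined by a line, with area set by the number of nuclei, for the 21 clusters with 10 or more nuclei in each library. Cluster 9 lies at the GABA end, clusters 3, 4, 7, 22 and 26 toward the glutamate end, and clusters 5 and 13 between.

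Single peptide genes gave the same picture where enough nuclei carried 5 or more UMIs of one. Of nuclei rich in Gal, the galanin gene, 32 of 39 in A and 14 of 17 in B were GABA-only. Of nuclei rich in Avp, 7 of 18 in A and 11 of 20 in B were glutamate-only, 9 and 8 had neither side, and 0 were joint. These were the only peptide genes with 10 or more such nuclei in each library.

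Across qualifying nuclei, Nrxn3, the gene of the presynaptic adhesion protein neurexin 3, had the pattern most like each of the 3 GABA-side genes among 9974 genes. Pearson's r over log-scaled counts was 0.470 in A and 0.440 in B with Gad2, 0.338 and 0.317 with Slc32a1 and 0.270 and 0.280 with Gad1. Next came Dlx6os1 and Meis2 for Gad2, at mean values of 0.211 and 0.206, Grik3 (0.120) and Dlx6os1 (0.115) for Slc32a1, and Nrg1 (0.130) and Dlx6os1 (0.119) for Gad1. Cacna2d1, the gene of a calcium channel subunit, was most like Slc17a6, at 0.350 and 0.372, followed by Tmem163 (mean 0.247) and Arpp21 (0.188). Nrxn3 was the gene most unlike Slc17a6, at -0.446 and -0.425. Nuclei of one library share depth and free RNA, so these values describe the libraries and carry no p, and values such as 0.12 are weak.

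The glutamate-only and GABA-only classes were then compared over all other genes, on UMIs summed per class and library, with edgeR's quasi-likelihood test, the library as a block and Benjamini-Hochberg adjustment at 0.05. The 6 members were left out of the tested genes because they define the classes. Of 11963 genes, 615 passed (5.14%), 399 higher in glutamate-only nuclei (3.34%) and 216 lower (1.81%), while the median gene differed by -0.01 on the log2 scale. Without the library term 47 passed, all of them among the 615, and DESeq2 called 226.

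The gene with the smallest p was Nrxn3. It stood at 7855 and 7115 CPM in GABA-only nuclei of A and B, 993 and 988 in glutamate-only nuclei, 2116 and 2865 in joint nuclei and 2857 and 3061 in nuclei with neither. The exclusive classes lay far apart in both libraries, and the other classes lay between. The log2 difference of glutamate-only from GABA-only nuclei was -2.88 ± 0.0890 (SE; edgeR adjusted p = 2.34e-28). Cacna2d1 went the other way, at 334 and 247 CPM in GABA-only nuclei and 1485 and 1329 in glutamate-only nuclei, a log2 difference of 2.32 ± 0.0908 (SE; edgeR adjusted p = 2.40e-24).

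Other genes by rank of p were also far apart in both libraries. Higher in glutamate-only nuclei were Tmem163, which encodes a zinc transporter (log2 difference 2.59), Tafa1, a secreted chemokine-like protein (1.97), Sim1, a transcription factor of the paraventricular nucleus (4.37), B230323A14Rik (4.78), Arpp21 (1.62), Sfta3-ps (2.27), Ebf3 (4.45), Adamtsl1 (2.22) and Rgs6, a regulator of G protein signalling (1.62). Lower in them, and so higher in GABA-only nuclei, were Gal (-3.33), Dlx6os1 (-6.32), the endopeptidase gene Ecel1 (-2.50), Meis2 (-3.79), the neuregulin gene Nrg1 (-0.996), Sox2ot (-1.14), Arhgap6 (-1.32) and Gm14204 (-6.44). In each of these genes the sign was the same in both libraries.

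A pair of these transcripts lie at the loci of members. Gm14204 is a non-coding RNA on the minus strand of chromosome 2 that ends at 158595472 and begins at 158610723 in GENCODE M21, inside the Slc32a1 window printed above and pointing away from that gene. It gave 149 UMIs in GABA-only nuclei and 1 in glutamate-only nuclei, a ratio of 117 with an exact 95% interval of 20.7 to 4647 for counting error. Gad1os, annotated as antisense to Gad1 and overlapping it, stood at 17.8 and 23.0 CPM in GABA-only nuclei against 1.62 and 0.878 in glutamate-only nuclei. Gad1os was picked out after its values were seen, as a gene within 5000 bases of a member. The labels do not say whether counting used strand, so reads of Gad1 and Gad1os cannot be told apart. Because glutamate-only nuclei were chosen for having no Gad1 UMI, the Gad1os values may restate that choice and are given as a description only. Myo3a, next to Gad2, did not pass (-1.66, edgeR adjusted p = 0.245).

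The gene lists used here and below were all chosen with earlier results of these data known, and those of lineage factors are sorted by side. The counts of list members, and their shares beside those over all genes, are thus a description and not a test. Of 20 factors listed for the GABA lineage 11 were tested. Their median log2 difference was -3.68 (-3.56 with genes at 0 set to their bound) beside -0.01 over all genes. In glutamate-only nuclei 9 of them were lower (81.8%, beside 1.81% over all genes). They were Dlx1, Dlx2, Dlx5 and Dlx6, homeobox factors that drive GABAergic fate in the forebrain, the non-coding Dlx6os1, Isl1 (-2.69), Meis2, Six3 (-1.88) and Prox1 (-1.18). Dlx6 stood at 17.4 and 17.3 CPM in GABA-only nuclei and at 0 UMIs in glutamate-only nuclei of both libraries, at least 20.9-fold higher by a floor of 3 counts over the class. Dlx2 was likewise at 0 there and at least 11.8-fold higher in GABA-only nuclei. Dlx1 gave 102 UMIs against 1, a ratio of 80.0 with an exact 95% interval of 14.04 to 3191, and Dlx5 39 against 2, a ratio of 15.3 (3.96 to 131). Dlx6os1 overlaps Dlx6 on the other strand, with the same limit on strand as above. Zfhx3 (-0.16) and Onecut2 (0.25) did not pass.

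Of 20 factors listed for glutamatergic lineages, 9 were tested, with a median log2 difference of 4.37. In glutamate-only nuclei 7 of them were higher (77.8%, beside 3.34% over all genes). Among these were Sim1, the Ebf factors Ebf1 (1.76), Ebf2 (5.45) and Ebf3, Lmx1a (3.82) and Nr5a1, the steroidogenic factor of the ventromedial nucleus. Sim1 stood at 93.8 and 128 CPM in glutamate-only nuclei against 4.88 and 5.76 in GABA-only nuclei, and the classes did not overlap. Nr5a1 gave 26 UMIs against 1, a ratio of 33.1 (exact 95% interval 5.45 to 1359). Otp (0.26) and Tcf7l2 (0.65, edgeR adjusted p = 0.0692) did not pass.

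Neuropeptide genes went both ways: of 34 listed, 23 were tested, with a median log2 difference of -0.79. In glutamate-only nuclei 11 were lower (47.8%, beside 1.81% over all genes) and 7 higher (30.4%, beside 3.34%). With GABA went Gal, Sst (-2.08), Npy (-1.45), Cartpt (-1.08), Pmch (-0.79), Nts (-1.20), Vip, Tac2 (-1.94), Prok2 (-1.96), Pnoc (-1.88) and Vgf (-1.24). With glutamate went Hcrt (2.70), Avp (2.16), Oxt (2.29), Trh (1.90), Pdyn (2.84), Tac1 (0.82) and Adcyap1, the gene of PACAP (4.01). Gal stood at 163 and 126 CPM in GABA-only nuclei against 14.56 and 14.05 in glutamate-only nuclei. Adcyap1 stood at 1.39 and 3.46 CPM against 35.6 and 34.2. Vip gave 42 UMIs against 1, a ratio of 32.9 (exact 95% interval 5.60 to 1332). Agrp (-0.10), Pomc (-0.95), Penk (-0.14), Cck (1.59) and Scg2 (-0.03) did not pass. Some of these calls may rest on few nuclei. Pmch led cluster 28, which held 8 GABA-only and 3 glutamate-only nuclei in A and 2 of each in B. Npy, Avp and Hcrt led clusters of 52, 47 and 44 nuclei. Without the library term 1 peptide gene passed in each direction.

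Genes listed for other transmitters went with GABA where they differed: of 16 listed, 7 were tested and 5 were lower in glutamate-only nuclei. That is 71.4%, beside 1.81% over all genes. Th, the first enzyme of catecholamine synthesis, differed by -2.45, Ddc, the decarboxylase of dopamine and serotonin synthesis, by -0.65, Slc18a2 by -1.86, Hdc by -3.23 and the synaptic vesicle gene Sv2c by -0.70. Hdc and Slc18a2 led cluster 25, of 22 nuclei, which held 11 GABA-only nuclei in A and 3 in B and no glutamate-only ones. The calls on Hdc and Slc18a2 may thus rest on few nuclei. None of the 5 passed without the library term.

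Of 20 genes of GABA and glutamate metabolism and uptake, 17 were tested and 2 (11.8%, beside 1.81% over all genes) were lower in glutamate-only nuclei, among them Abat, which breaks GABA down (-0.47). The median log2 difference of the list was -0.15. DESeq2 called neither of the 2.

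Receptor genes divided by subunit. Of 16 GABA receptor genes, 14 were tested, with Gabra2 (0.29) and Gabra5 (0.51) higher in glutamate-only nuclei and Gabrg1 (-0.48) and Gabrg3 (-0.35) lower. Each direction held 14.3% of those tested, beside 3.34% higher and 1.81% lower over all genes. Of 24 glutamate receptor genes, 23 were tested, and 26.1% of them were higher and 13% lower. Of these 6 were higher in glutamate-only nuclei, among them the metabotropic genes Grm2 (1.87), Grm4 (1.26), Grm5 (0.31), Grm7 (0.51) and Grm8 (0.52), and the ionotropic genes Gria4 (-0.32), Grik1 (-0.62) and Grik3 (-1.26) were lower. Apart from Grm2, Grm4 and Grik3 these were differences of less than 1 on the log2 scale. Without the library term no receptor gene passed.

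Calcium-binding and synapse-organising genes went with glutamate where they differed, 5 of 15 tested (33.3%, beside 3.34% over all genes). They were Calb1 (1.07), Calb2 (1.06), Nos1, the neuronal nitric oxide synthase (1.33), and the cerebellins Cbln1 (3.11) and Cbln2 (0.68). Thinned to 1000 UMIs, 10 genes of the list were tested and 0 passed. Among 12 tested hormone receptor genes, Nr3c2, the mineralocorticoid receptor, was higher (0.35) and Esr1 lower (-0.66). Each is 8.33% of those tested, beside 3.34% higher and 1.81% lower over all genes. Both calls were lost when 2 UMIs were asked of a side.

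**Figure D5:**
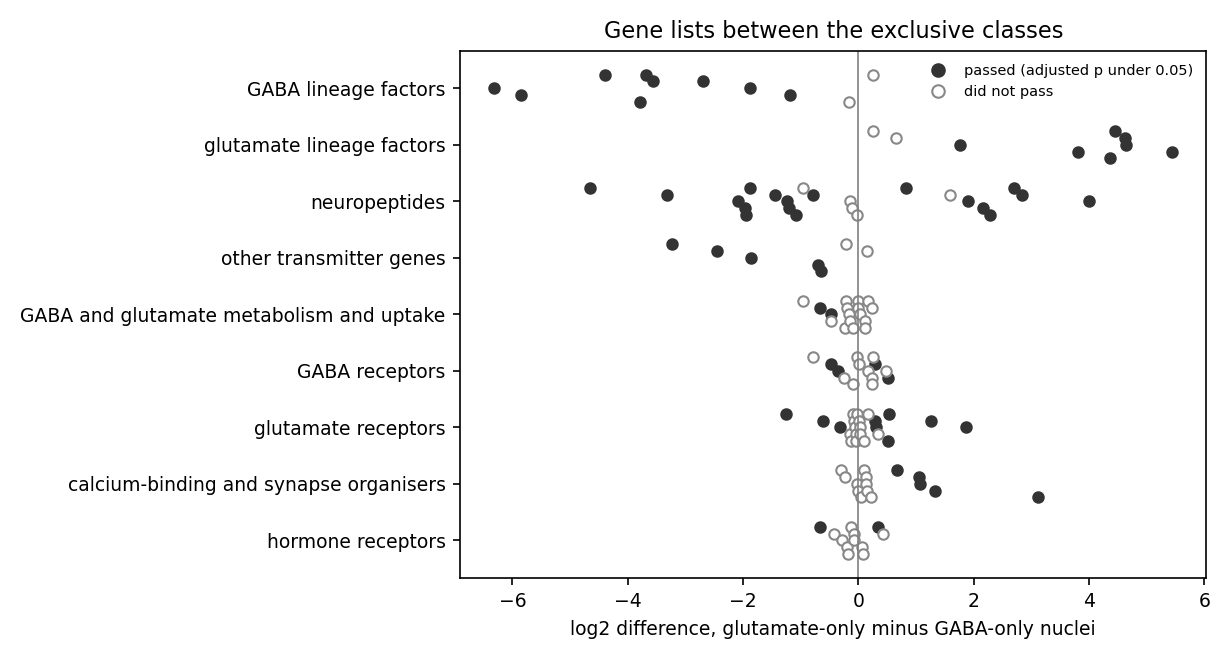
Log2 difference of glutamate-only from GABA-only nuclei for the tested genes of 9 lists. Filled points passed at an adjusted p under 0.05 in edgeR, and Dlx2 and Dlx6, at 0 UMIs in glutamate-only nuclei, are drawn at their lower bound. The lineage lists, which were sorted by side when chosen, lie on opposite sides, with medians of -3.68 and 4.37. The medians of the GABA receptor, glutamate receptor and metabolism lists lie near 0, at 0.0854, 0.00391 and -0.148. Single receptor genes such as Grm2, Grm4 and Grik3 lie farther out.

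Of 25 tested markers of cells other than neurons, 5 passed between the exclusive classes (20%, beside 5.14% over all genes). Of the 12 astrocyte markers 6 were tested and 1 passed, Gpc5 (0.77), which neurons also express, and the summed level of that list ran from 472 to 497 CPM in GABA-only and 640 to 792 in glutamate-only nuclei. Of 6 tested oligodendrocyte markers 1 passed, St18 (-1.22), at list sums of 146 to 171 and 112 to 176 CPM. Of 5 tested precursor markers Sox6 passed (-1.31), at sums of 1393 to 1476 and 1532 to 1584 CPM. Of 4 tested tanycyte and ependymal markers Dnah12 was higher (2.29) and Col25a1 lower (-0.88), and the list sum was 578 and 529 CPM in GABA-only against 362 and 329 in glutamate-only nuclei of A and B. None of 3 microglia markers or of the 1 tested vascular marker passed. In nuclei of neuron clusters alone 593 genes passed, 578 of them among the 615.

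Joint nuclei were compared with the average of the exclusive classes on the log scale. Of 11963 genes 27 passed (0.226%), 23 higher (0.192%) and 4 lower (0.0334%) in joint nuclei. That average is a geometric mean, so a plain mixture of both classes comes out as higher wherever they differ strongly, as for Sim1, Cacna2d1, Adamtsl1 and Tafa1, which lay between the classes or, for Adamtsl1, between them in B alone. Of the 23 genes 17 lay above both exclusive classes in both libraries, and of the 4 lower ones 3 lay below both. No gene passed without the library term, where 376 genes reached an unadjusted p of 0.05.

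Among those above both classes, Chrm3, the muscarinic M3 receptor, stood at 467 and 562 CPM in joint nuclei against 171 and 222 in GABA-only and 323 and 306 in glutamate-only nuclei (log2 difference 1.04 ± 0.118, SE; edgeR adjusted p = 3.19e-07). Col8a1, a collagen gene, stood at 64.6 and 67.3 CPM against 18.1 and 17.9 and 22.7 and 19.3 (1.74 ± 0.298, SE; edgeR adjusted p = 0.00142). Etl4 (0.66), Zeb2 (1.45), Nfia (0.94) and Zfp536 (0.80) were others among those named by rank, and of the fixed lists Grm8 (0.48) and Erbb4, a neuregulin receptor (0.39), also passed. Chrm3 was also among the leading genes of clusters 22 and 26. Joint nuclei made up 6.76% and 6.34% of these (means of 2 libraries), beside 3.34% of all qualifying nuclei. Nfia was among those of clusters 2 and 24, where the joint share was 2.04% and 0%. The part of cluster membership in these differences was not tested. None of the 11 tested GABA lineage factors passed in joint nuclei, beside 0.226% over all genes. Higher there were 2 of 9 glutamate lineage factors (22.2%, beside 0.192% over all genes), Sim1 among them.

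Lower in joint nuclei were Hdac9 (-0.57), Dgkb (-0.43), Galntl6 (-0.34) and Avp. Hdac9 stood at 428 and 423 CPM in joint nuclei, below 673 and 570 in GABA-only and 643 and 636 in glutamate-only nuclei. Avp gave 0 UMIs in joint nuclei, against 36.9 CPM over the exclusive classes together. Its UMIs sit in few nuclei: those with 5 or more numbered 2 GABA-only and 7 glutamate-only in A, and 1 and 11 in B, so no lower bound on the difference is given. The call on Avp was lost at a minimum of 500 UMIs (edgeR adjusted p = 0.860) and of 2000 UMIs (0.0760). Depth and the UMI threshold moved with all of these calls. With 2 UMIs asked of a side, nuclei with a single UMI of a side were left out, and 0.364% of those kept were joint. Then 25 genes passed, but only 6 were higher and 4 were shared with the 27. Without nuclei above 5000 UMIs 10 genes passed. With every nucleus thinned to 1000 UMIs, which leaves 22 joint nuclei in A and 7 in B, none of the 23 higher genes passed. Chrm3, Etl4, Zeb2, Nfia and Zfp536 turned negative there, as did Sim1 and Adamtsl1 by little. Zeb2 is also known from glia: it was among the leading genes of cluster 16, at 64.6 CPM in joint nuclei of A and 144 in B, where the summed oligodendrocyte markers of joint nuclei stood at 70.4 and 457 CPM, and the log2 difference was -0.17 without nuclei with 5 or more glial-marker UMIs. The part of depth and of glial RNA in these differences was not tested.

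In nuclei with neither side, 61 of 11963 genes passed against the same average (0.51%), 44 higher (0.368%) and 17 lower (0.142%), of which 22 and 12 lay outside both exclusive classes in both libraries. Sim1, Cacna2d1, Tmem163, B230323A14Rik and Ebf3, all higher in glutamate-only nuclei, were among those higher but between the exclusive classes, as was Dlx6os1 (1.38), which is higher in GABA-only nuclei. As for joint nuclei, a plain mixture of the classes also gives such values. Sim1 stood at 77.8 and 78.0 CPM, below the 93.8 and 128 of glutamate-only nuclei. No gene passed without the library term, where 138 genes reached an unadjusted p of 0.05. DESeq2 called 14, and with the exclusive nuclei pooled as 1 class edgeR called 75, 32 of them higher.

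Of 23 tested peptide genes 5 were higher with neither side (21.7%, beside 0.368% over all genes): Avp (1.23), Oxt (1.17), Hcrt (1.58), Trh (1.37) and Adcyap1 (1.30). Avp stood at 62.8 and 102 CPM with neither side and 38.8 and 119 in glutamate-only nuclei, which overlap. Trh stood at 26.7 and 56.4 CPM, above the 12.9 and 53.6 of glutamate-only nuclei of the same library. Hcrt stood at 158 CPM in A but 32.3 in B, where glutamate-only nuclei were higher at 74.6. Adcyap1, at 20.6 and 25.7 CPM, lay below the 35.6 and 34.2 of glutamate-only nuclei.

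Lower with neither side were Pbx3 (-0.53), Zfpm2 (-0.49), Zfp385b (-0.49), Kirrel3 (-0.36), Egfem1 (-0.35), Cep112 (-0.40), Lrrc4c (-0.30), Thsd7b (-0.36) and Alk (-0.39). Pbx3, a TALE homeobox factor, stood at 156 and 138 CPM against 271 and 202 in GABA-only and 201 and 152 in glutamate-only nuclei. These differences were small, all under 1 on the log2 scale.

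Some of the genes higher with neither side moved with nuclei outside the neuron-like clusters. Slc1a3, the glial glutamate transporter (1.74), Col23a1 (1.72) and Scn7a (1.45) were higher, and 24 nuclei of cluster 24, led by Fndc3c1, Scn7a and Col23a1 and outside the neuron-like clusters, all had neither side. Oligodendrocyte precursor-like clusters gave 15 of the 930 nuclei with neither side in A and 0 of 476 in B. In nuclei of neuron clusters alone 33 genes passed, and Slc1a3 differed by 0.30, Col23a1 by -0.15 and Scn7a by -0.04, none of which passed, whereas Hcrt remained higher (1.61).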

How the data were processed

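Nuclei of whole hypothalamus were profiled with a droplet single-nucleus assay. The authors deposited UMI count matrices made with Cell Ranger 5.0.1, per the submitters' processing notes, which name the human build GRCh38 although the gene identifiers are mouse; the mouse build is not stated. The deposited counts were used unchanged. Nuclei were kept at 1000 UMIs and 3 Snhg11 UMIs, classed by 1 UMI of a side, and thinned to 1000 UMIs (500 for cell types) where depths differ. Clusters were made with scanpy 1.11.5 without the 6 genes, and no doublet caller was run. Named cell classes were rebuilt from marker lists. UMIs summed over 4 classes in 2 libraries were tested with edgeR 4.0.16 (TMM, quasi-likelihood, Benjamini-Hochberg adjustment), with DESeq2 1.42.0 as an alternative, in R 4.3.3. Classes of 1 library come from the same nuclei, so the library is a block: class deviations between libraries correlated at 0.253 to 0.588 over 11963 genes. Members and gene lists were chosen with earlier results of these data known. Genes named were the 10 with the smallest p per comparison and direction, at 10 CPM or more in the higher class and of 1 sign in both libraries, plus list members. Promoters are from RefSeq (GRCm38.p6), where all 6 members matched, and neighbouring genes from GENCODE M21. The binomial intervals are exact (Clopper-Pearson). Alternatives covered the UMI, Snhg11 and detection minimums, thinning, deep or glial-marker nuclei, normalization, tool, block and filter. With exclusive nuclei pooled, 1 UMI of each side left out, or neuron clusters alone, the alternatives were chosen after seeing the data. Results that need a few genes named by these rules are not reported here.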

Additional observations from a re-analysis of the deposited data

How the results depend on the processing

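The count of genes between glutamate-only and GABA-only nuclei was 407 with 2 UMIs asked of a side, 153 with nuclei thinned to 1000 UMIs, 338 without nuclei with 5 or more glial-marker UMIs, 47 with no replicate block and 226 with DESeq2. That glial filter also removes neurons, since its lists hold genes that neurons express. For joint nuclei the count was 8 thinned, 10 without nuclei above 5000 UMIs, 5 without glial-marker nuclei, 0 with no replicate block and 17 with only the classes compared in the fit. For nuclei with neither side it was 26 at a minimum of 2000 UMIs, 286 at 1 Snhg11 UMI, 11 thinned, 17 without glial-marker nuclei, 33 in neuron clusters alone, 0 with no replicate block, 14 with DESeq2 and 101 with only the classes compared. With 2 UMIs asked of a side, nuclei with a single UMI of a side were left out of the shares. The base was then 1942 nuclei in A and 947 in B, so shares in this setting are not on the main base. Nuclei with neither side were the same ones as in the main setting there, over this smaller base. The GABA-only share was 35.5% with 2 UMIs a side and 24.6% thinned. The glutamate-only share was 29.7% at 2000 UMIs, 15.01% with 2 UMIs a side, 12.8% thinned and 20.3% without glial-marker nuclei. The joint share was 4.30% at 2000 UMIs, 0.364% with 2 UMIs a side, 0.624% thinned, 2.76% without nuclei above 5000 UMIs, 2.05% without glial-marker nuclei and 1.88% without nuclei of 1 UMI a side. The share with neither was 26.7% at 2000 UMIs, 34.98% at 500, 34.9% at 1 Snhg11 UMI, 32.7% at 5 and in neuron clusters, 49.1% with 2 UMIs a side, 62.04% thinned, 34.99% without nuclei above 5000 UMIs, 38.3% without glial-marker nuclei and 33.7% without joint nuclei of 1 UMI a side. The joint share over the product was 0.0663 with 2 UMIs a side, 0.186 thinned, 0.252 without nuclei above 5000 UMIs, 0.220 without glial-marker nuclei and 0.169 without joint nuclei of 1 UMI a side. Thinned, joint nuclei summed to only 22000 UMIs in A and 7000 in B, so values of single genes there rest on few counts. The log2 differences there were -0.52 for Chrm3, -0.047 for Sim1, -0.89 for Etl4, -0.47 for Nfia, -0.0076 for Adamtsl1 and -0.45 for Zfp536. The fitted -7.47 for Zeb2, at 29.3 CPM in GABA-only and 41.0 in glutamate-only nuclei before thinning, is not a measured size. Zeb2 was -0.17 without glial-marker nuclei. With neither side, Kirrel3 was 0.067 thinned, and in neuron clusters Scn7a was -0.036 and Col23a1 -0.15. The cause of these changes was not tested. Over the settings with a test, 317 of 320 values of genes named by rank between the exclusive classes kept their side of the threshold and 3 lost it, with no replicate block. For joint nuclei 164 of 236 kept it, 64 lost it and 8 changed sign, and with neither side 257 of 338, 78 and 3. Leaving out a library leaves 1 per class and gives values without a test.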

Other observations

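Gad1 was also read in nuclei named oligodendrocyte precursor-like, led by Pdgfra and Cspg4, most of which lie outside the qualifying nuclei. It was found in 5 of 136 such nuclei in library A (3.68%, exact 95% interval 1.20 to 8.37) and 10 of 75 in library B (13.3%, 6.58 to 23.2), at 37.2 and 106 CPM. Gad2 was found there in 2.21% and 2.67%. The intervals of Gad1 and Gad2 overlap in each library.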
